A study of Mus musculus with 8 samples.

Results

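The genes described here are the fast and slow isoforms of the 3 troponin subunits and of the 2 kinds of myosin light chain in skeletal muscle. They are 10 of the 21109 genes that could be used in all libraries. They were listed by name, with earlier results of these data known, and the rule uses no measured value. The 5 slow members are Tnnt1, Tnni1, Tnnc1, Myl2 and Myl3, and the 5 fast members are Tnnt3, Tnni2, Tnnc2, Myl1 and Mylpf. The study sequenced RNA of single nuclei from the gastrocnemius, a calf muscle, of wild-type (WT) C57BL/6 mice. It compared mice of 20 months (labelled Aging, called Old here) with mice of 3 months (Young), and mice made to run on a treadmill for 2 months from the age of 11 months (Running) with mice from the same age that did not run (Sedentary). Each of the 4 groups had 2 libraries, 1 made with 10x Genomics droplets (Old 1, Young 1, Running 1 and Sedentary 1) and 1 whose platform the labels do not name (Old 2, Young 2, Running 2 and Sedentary 2, called the second set). The study's methods name the DNBelab C system as its other platform. The labels do not say which mice, or how many, went into a library. A p-value for a comparison of groups thus measures only the spread between these libraries, which may be technical. A p-value for a comparison of kinds of nuclei within libraries measures only how that difference varies between these libraries, which may be technical too.

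Troponin is the calcium switch of the thin filament: the T subunit binds tropomyosin, the I subunit blocks the myosin sites at rest, and the C subunit binds calcium and lifts the block. Each subunit has a gene used mainly in slow, oxidative fibres and a gene used mainly in fast fibres. The neck of a myosin head carries an essential light chain (Myl3 in slow and Myl1 in fast fibres) and a regulatory light chain (Myl2 in slow and Mylpf in fast fibres). Tnnc1, Myl2 and Myl3 are also the isoforms of heart ventricle. The fibre type itself is named after the myosin heavy chain, with Myh7 in slow fibres and Myh2, Myh1 and Myh4 in type IIa, IIx and IIb fibres, and the mouse gastrocnemius is mostly a fast muscle.

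The members lie on 6 chromosomes. On GRCm38, Tnnt3 (chromosome 7, 142498836 to 142516009) and Tnni2 (chromosome 7, 142441808 to 142444410), a fast T and a fast I subunit gene, lie near each other. Genes between them were not looked for. Tnnt1 is on chromosome 7 (4504570 to 4516382) and Mylpf on chromosome 7 (127208890 to 127214298), Tnni1 on chromosome 1 (135779434 to 135810989), Myl1 on chromosome 1 (66924295 to 66945404), Tnnc1 on chromosome 14 (31208312 to 31211729), Tnnc2 on chromosome 2 (164777161 to 164779967), Myl2 on chromosome 5 (122100951 to 122113472) and Myl3 on chromosome 9 (110741861 to 110769798). Tnnc1, Myl2, Myl3, Tnnt3 and Tnnc2 overlap a gene on the other strand (Nisch, Ccdc63, Pth1r, Prr33 and Ube2c). The sources used here do not state whether strand was used in counting, so a part of their counts could belong to that partner.

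The RefSeq promoter table (GRCm38.p6) held 8 of the 10 members. The windows of 250 bases before a start of 1 slow and 1 fast member are shown as examples that overlap no annotated exon. The 2 genes moved in opposite directions between myosin classes but are not isoforms of the same protein. The windows of Myl2, the slow partner of Mylpf, also overlap no exon and are not shown. Capitals mark matches, on either strand, to CANNTG (the E-box core bound by MyoD and its relatives) or to CATTCC, which reads GGAATG on the other strand (the MCAT element bound by TEAD factors). No match of these overlapped another. The Tnnc1 window lies just before the gene, within the overlapping gene Nisch, and the Mylpf window lies inside the annotated Mylpf gene, between exons and before the RefSeq start.
Tnnc1 (chr14:31208062-31208311, plus strand): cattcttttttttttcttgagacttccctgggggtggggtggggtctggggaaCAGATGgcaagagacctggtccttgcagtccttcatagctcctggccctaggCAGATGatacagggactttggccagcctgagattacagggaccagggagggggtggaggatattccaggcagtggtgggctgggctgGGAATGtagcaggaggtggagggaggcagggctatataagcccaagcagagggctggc
Mylpf (chr7:127211358-127211607, plus strand): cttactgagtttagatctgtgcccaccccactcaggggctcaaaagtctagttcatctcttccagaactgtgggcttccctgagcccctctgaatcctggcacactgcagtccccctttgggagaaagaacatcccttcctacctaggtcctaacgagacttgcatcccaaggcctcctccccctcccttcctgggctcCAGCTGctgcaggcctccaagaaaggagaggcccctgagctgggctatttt
The Tnnc1 window held 2 matches to CANNTG and 1 to GGAATG, and the Mylpf window held 1 match to CANNTG. Neither held the exact string TATAAA on either strand or a match to the MEF2 consensus. Similar strings, such as tatataag near the end of the Tnnc1 window, were not counted, so a TATA box is not excluded. Over all 32851 promoters in the table, 66.2% of such windows held CANNTG, 12.6% held CATTCC or GGAATG, 12.4% held TATAAA and 2.92% held the MEF2 consensus, so a match or its lack in a single window is a description only.

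The 8 matrices held 65280 nuclei, of which 64803 were retained, with between 23327640 and 44389777 unique molecular identifiers (UMIs, each a tag counting 1 captured RNA molecule) in the 10x libraries and between 4765224 and 9088163 in the second set. Barcodes shared by a pair of 10x libraries were at most 0.390% of the smaller library, and the second set has running names in place of barcodes, which cannot be compared. Old 2 stood apart from its set: genes longer than 300 kb took 18.4% of its UMIs against 12.4% to 13.04% in the other second-set libraries, and 72.1% of its nuclei could be placed in a myosin class against 89.7% to 97.9%. Sedentary 1 was the shallowest 10x library, with a median of 1664 UMIs per nucleus against 2790 to 3001 in the other 10x libraries.

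Over all retained nuclei of a library, the slow members were near absent in Young 1 and Running 1, intermediate in Old 1 and Sedentary 1, and highest in Young 2, Old 2 and Running 2. Levels are given as CPM, the UMIs of a gene scaled to a total of 1000000 UMIs over the genes used. Tnnt1, the slow tropomyosin-binding subunit, had 36.3 in Old 1, 0.786 in Young 1, 1.72 in Running 1, 80.9 in Sedentary 1, 353 in Old 2, 842 in Young 2, 192 in Running 2, and then 97.3 in Sedentary 2. Old and Young overlapped, and so did Running and Sedentary, since the order of the groups was opposite in the 2 sets. Tnni1, the slow inhibitory subunit, had 10.3, 0.482, 1.29 and 15.2 in the 10x libraries in the same order (Old, Young, Running, Sedentary) and 70.8, 143, 31.1 and 11.6 in the second set. Tnnc1, the slow calcium-binding subunit, had 23.5, 0.583, 1.02 and 60.1 in the 10x libraries and 202, 381, 94.8 and 41.4 in the second set. All 3 slow troponin genes thus had their lowest level in Young 1 and their highest in Young 2, and so had both slow light chains. Myl2, the regulatory chain, had 37.4, 0.811, 2.22 and 31.6 in the 10x libraries and 140.3, 311, 108 and 53.4 in the second set. Myl3, the essential chain, had 49.0, 0.887, 1.996 and 37.3 in the 10x libraries and 327, 438, 63.6 and 45.2 in the second set. In such library sums, fewer nuclei of a type and less RNA per nucleus cannot be told apart.

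**Figure D1:**
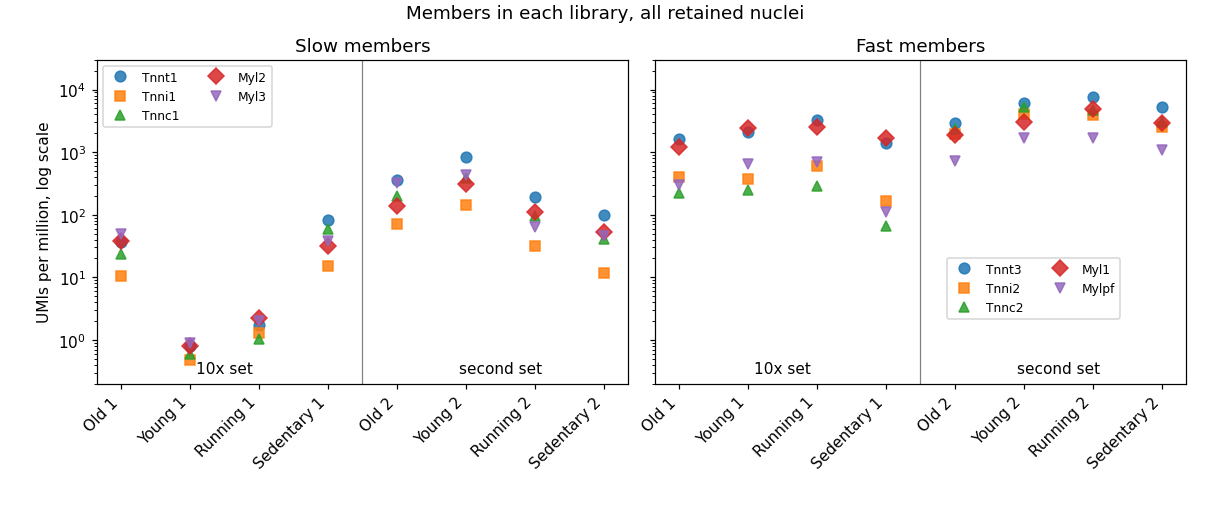
Levels of the 5 slow members (left) and 5 fast members (right) in each of the 8 libraries, as CPM on a log scale, 1 point per gene and library; Old 1 to Sedentary 1 are the 10x libraries and Old 2 to Sedentary 2 the second set. The slow members fall below 3 CPM in Young 1 and Running 1 and lie between 11.6 and 842 in the second set, while no fast member falls below 64.9.

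The fast members were abundant in every library, and each was higher in Young 2, Running 2 and Sedentary 2 than in all 10x libraries. Tnnt3, the fast tropomyosin-binding subunit, had 1598 in Old 1, 2093 in Young 1, 3211 in Running 1, 1393 in Sedentary 1, 2903 in Old 2, 6188 in Young 2, 7547 in Running 2, and then 5347 in Sedentary 2. Tnni2, the fast inhibitory subunit, had 406, 372, 591 and 167 in the 10x libraries (Old, Young, Running, Sedentary) and 1972, 4027, 3978 and 2517 in the second set. Tnnc2, the fast calcium-binding subunit, had 226, 247, 292 and 64.9 in the 10x libraries and 2377, 5238, 4659 and 2991 in the second set. For Tnni2 and Tnnc2, and likewise for Mylpf, the lowest second-set library was above the highest 10x library. Myl1, the essential chain, had 1207, 2421, 2556 and 1712 in the 10x libraries and 1871, 3036, 4885 and 2969.9 in the second set. Mylpf, the regulatory chain, had 295, 657, 707 and 109.5 in the 10x libraries and 730.4, 1690.0, 1661 and 1096 in the second set. For Tnnt3 and Myl1 the sets overlapped. Sedentary 1 was the lowest library for 4 of the 5 fast members and Old 1 the lowest for Myl1.

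The make-up of the fast UMIs differed between the sets. Tnnt3 and Myl1, the 2 longest fast member genes (17174 and 21110 bp), gave 75.2% of the fast member UMIs in Old 1, 78.0% in Young 1, 78.4% in Running 1, with 90.1% in Sedentary 1, but 48.4%, 45.7%, 54.7% and 55.7% in Old 2, Young 2, Running 2 and Sedentary 2. The shares of the sets did not overlap. The other fast members, Tnni2, Tnnc2 and Mylpf, are between 2603 and 5409 bp long. Whether gene length or the counting of intronic reads took part in this was not tested.

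To follow the members by fibre type, each nucleus was placed in a myosin class when it had at least 3 UMIs of Myh1, Myh2, Myh4 and Myh7 together and more than 50% of them from 1 gene. Between 56.2% (Old 1) and 97.9% (Running 2) of the nuclei of a library could be placed. Myh4-dominant nuclei were the most numerous in all 8 libraries (3011 to 8453 each). Myh7-dominant nuclei were few: 148 in Old 1, 0 in Young 1, 7 in Running 1, 373 in Sedentary 1, 30 in Old 2, 82 in Young 2, 13 in Running 2, and then 14 in Sedentary 2. They made up 1.27% of nuclei in Old 1 and 3.52% in Sedentary 1 but held 55.3% and 69.0% of all slow member UMIs there. In the second set, Myh7-dominant nuclei held 21.7% of slow member UMIs in Old 2, 20.8% in Young 2, 6.56% in Running 2, and then 10.2% in Sedentary 2. Sums of at least 20 nuclei were compared, 28 in all, of which 4 were Myh7-dominant (Old 1, Sedentary 1, Old 2 and Young 2). The members played no part in placing a nucleus.

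All 10 members differed between Myh7- and Myh4-dominant nuclei, the 5 slow ones upward and the 5 fast ones downward, in a fit with the library as a block. Tnnt1 rose from 7.71 CPM in Myh4-dominant to 1610.1 in Myh7-dominant nuclei of Old 1, from 16.5 to 1414 in Sedentary 1, from 217 to 10068 in Old 2 and from 504 to 9383 in Young 2. The lowest Myh7-dominant level of Tnnt1 was above its highest Myh4-dominant level. Its log2 fold change was 5.76 (SE 0.37, adjusted p = 1.04e-14, edgeR quasi-likelihood test). Tnni1 rose from 2.15 to 459 in Old 1, 3.26 to 260.3 in Sedentary 1, 46.8 to 1792 in Old 2 and 84.7 to 1657 in Young 2, a log2 fold change of 5.67 (SE 0.35, adjusted p = 6.47e-15, edgeR). Tnnc1 rose from 4.26 to 1065 in Old 1, 10.7 to 1080.4 in Sedentary 1, 119.8 to 5682 in Old 2 and 237 to 4099 in Young 2, a log2 fold change of 5.87 (SE 0.40, adjusted p = 6.91e-14, edgeR). Neither gene's Myh7- and Myh4-dominant levels overlapped between libraries. Of all 13811 genes tested, 17.5% were called at an adjusted p under 0.05 in this comparison, 7.54% higher and 9.97% lower.

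The slow light chains behaved alike. Myl2 rose from 10.8 to 1105 in Old 1, 6.70 to 485 in Sedentary 1, 89.2 to 3018 in Old 2 and 206 to 2873 in Young 2, a log2 fold change of 5.31 (SE 0.45, adjusted p = 1.61e-11, edgeR). Myl3 rose from 16.5 to 1016 in Old 1, 7.85 to 464 in Sedentary 1, 174 to 7121 in Old 2 and 285 to 3039.6 in Young 2, a log2 fold change of 4.92 (SE 0.41, adjusted p = 1.14e-11, edgeR). The median log2 fold change of the 5 slow members was 5.67 against -0.16 for all genes tested. Another scaling (DESeq2 size factors) moved that median of all genes to -0.04 and the genes called higher and lower from 1041 and 1377 to 1362 and 1010, with all 10 members still called in the same direction.

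The fast members fell in Myh7-dominant nuclei. Tnnt3 fell from 2173 to 343 in Old 1, 1716 to 308 in Sedentary 1, 3127 to 1226 in Old 2 and 6633 to 2259.6 in Young 2, a log2 fold change of -2.31 (SE 0.17, adjusted p = 6.15e-13, edgeR). Tnni2 fell from 509 to 105.04 in Old 1, 202 to 49.4 in Sedentary 1, 2137 to 1108 in Old 2 and 4333 to 1861 in Young 2 (log2 fold change -1.78, SE 0.18, edgeR adjusted p = 1.40e-09). Tnnc2 changed the least of the 10, from 243 to 141 in Old 1, 72.7 to 34.0 in Sedentary 1, 2571 to 1839 in Old 2 and 5657 to 3244 in Young 2 (log2 fold change -1.002, SE 0.18, edgeR adjusted p = 5.29e-05). Each of these genes was lower in the Myh7-dominant nuclei of all 4 libraries. The fast light chain Myl1 fell from 1698 to 349.6 in Old 1, 2397 to 423 in Sedentary 1, 2028 to 731 in Old 2 and 3329 to 1157 in Young 2, a log2 fold change of -2.21 (SE 0.19, adjusted p = 1.61e-11, edgeR). Mylpf fell from 387 to 118 in Old 1, 139 to 28.8 in Sedentary 1, 808 to 589 in Old 2 and 1880.0 to 812 in Young 2, a log2 fold change of -1.64 (SE 0.18, adjusted p = 6.85e-09, edgeR). Within a library the levels of every fast member fell, but across sets they overlapped.

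**Figure D2:**
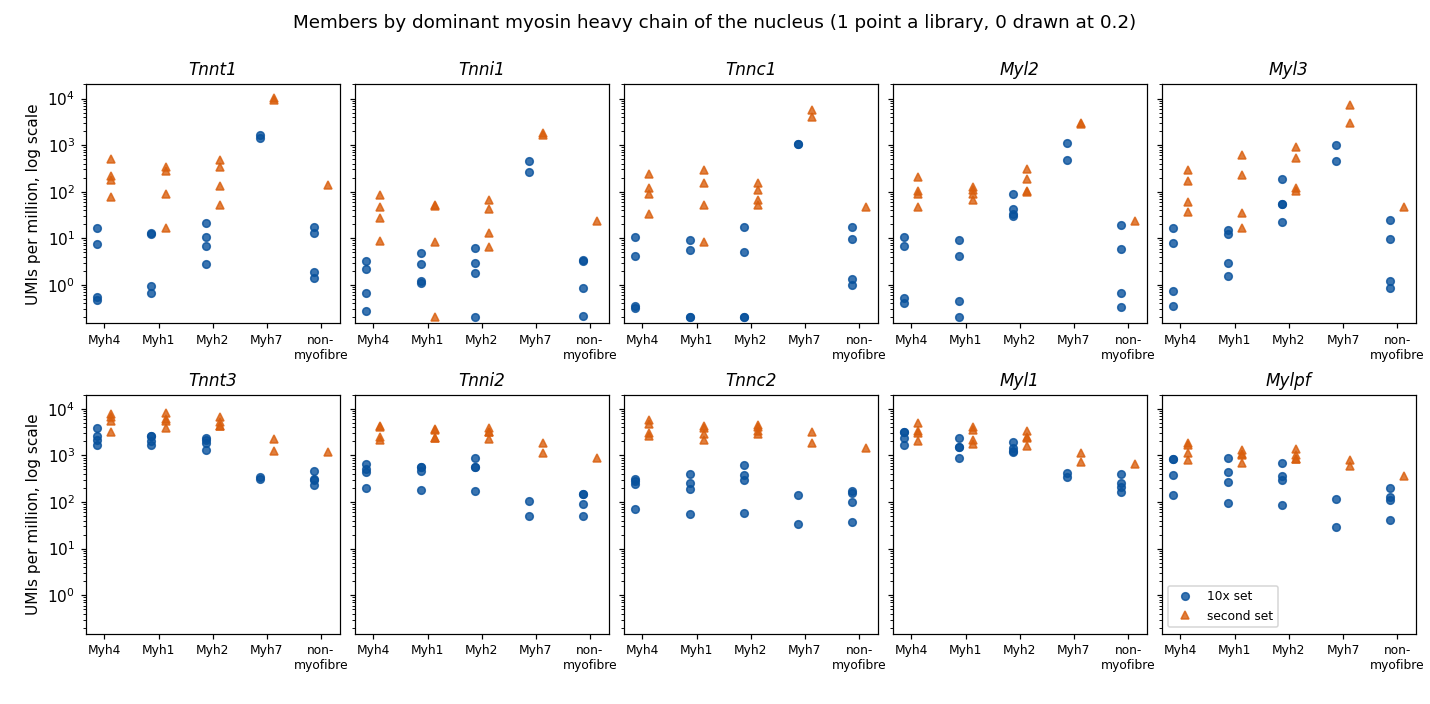
CPM (log scale) of each member in nuclei dominated by Myh4, Myh1, Myh2 or Myh7 and in nuclei with non-myofibre markers, 1 point per library with at least 20 such nuclei; circles are 10x libraries and triangles the second set. The slow members stand highest in Myh7-dominant nuclei in both sets, and Myl2 and Myl3 are also raised in Myh2-dominant nuclei of the 10x libraries (30.5 to 90.3 and 21.9 to 190.0). In the 10x libraries the fast members of Myh7-dominant nuclei lie near the non-myofibre level, except Myl1 (1.61 and 1.64 times that level).

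Free RNA in a droplet can give a nucleus UMIs of genes it does not express. Nuclei with at least 3 UMIs of non-myofibre markers, and more of these than of Ttn, Neb, Trdn and Ryr1, served as the background (630 to 4280 nuclei per 10x library). Nuclei placed in a myosin class were not left out of it, so it is not free RNA alone. It held 7.60% of the Myh4-dominant nuclei of Old 1, 3.29% of Young 1, 7.58% of Running 1 and 0.652% of Sedentary 1. In the 10x libraries, the level in Myh4-dominant nuclei was a median of 8.56 times the background for Myl1, 7.77 times for Tnnt3, 4.18 times for Tnni2, 3.81 times for Mylpf and 1.86 times for Tnnc2. Tnnc2, which changed the least between Myh7- and Myh4-dominant nuclei, thus started nearest the background of the fast members. In Myh7-dominant nuclei of the same set (Old 1 and Sedentary 1), Tnnt3, Tnni2, Tnnc2 and Mylpf were between 0.714 and 1.16 times the background, and Myl1 was 1.61 and 1.64 times the background. Except for Myl1, these fast levels thus lay near the background, and expression and free RNA cannot be told apart in them. The part of free RNA was not tested. The slow members in Myh7-dominant nuclei were between 40.3 times (Myl3) and 138 times (Tnni1) the background. In Myh4-dominant nuclei the slow members were between 0.252 and 1.12 times the background where both had more than 3 UMIs. The part of free RNA in these low levels was not tested either. The second set had 8 to 35 such nuclei per library, too few to set a background, and its members were high in them too (Tnnt3 1212 in the 35 nuclei of Old 2).

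The slow share of each isoform pair, the slow UMIs as a percentage of slow plus fast UMIs, was compared within libraries. For Tnnt1 and Tnnt3 it was 82.4% in Myh7-dominant nuclei of Old 1, 82.1% in Sedentary 1, 89.1% in Old 2 and 80.6% in Young 2, against 0.353%, 0.952%, 6.49% and 7.07% in Myh4-dominant nuclei. For Tnni1 and Tnni2 it was 81.4%, 84.1%, 61.8% and 47.1% against 0.421%, 1.59%, 2.14% and 1.92%, and for Tnnc1 and Tnnc2 88.3%, 97.0%, 75.5% and 55.8% against 1.72%, 12.8%, 4.45% and 4.02%. The shares of the I and C subunit pairs were thus lower in the second set than those of the T pair. In Old 2, Tnni2 had 1108 CPM in Myh7-dominant nuclei against 903 in the 35 nuclei with non-myofibre markers. Tnnc2 had 1839 against 1473 there, and Tnnt3 had 1226 against 1212. The part of such levels in the shares was not tested. For the essential chains Myl3 and Myl1 the shares were 74.4%, 52.3%, 90.7% and 72.4% against 0.964%, 0.326%, 7.88% and 7.89%, and for the regulatory chains Myl2 and Mylpf 90.4%, 94.4%, 83.7% and 78.0% against 2.71%, 4.59%, 9.95% and 9.88%. The mean difference was 79.9 percentage points for the T pair (SD 4.27, n = 4), 67.1 for the I pair (SD 17.9), 73.4 for the C pair (SD 15.9), 68.2 for the essential (SD 13.1) and 79.8 for the regulatory chains (SD 10.6). All 4 libraries went the same way in each pair, and the exact two-sided sign-flip permutation test gave p = 0.125 (0.125 after adjustment over the 5 pairs), the smallest p that 4 libraries allow.

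Among single nuclei with at least 10 member UMIs, Myh7-dominant ones were mostly slow and Myh4-dominant ones mostly fast in their members. The median slow share of member UMIs was 87.1% in the 139 Myh7-dominant nuclei of Old 1, 87.9% in 196 of Sedentary 1, 81.5% in 20 of Old 2 and 57.0% in 80 of Young 2. More than 90% slow were 42.4% of them in Old 1, 39.3% in Sedentary 1, 5 of the 20 in Old 2 and 2.50% in Young 2. Young 2 had the lowest median of these 4 libraries. Of Myh4-dominant nuclei, under 10% slow were 98.98% in Old 1, 99.95% in Young 1, 99.97% in Running 1, 98.2% in Sedentary 1 and between 81.0% and 97.1% in the second set. Of Myh2-dominant nuclei, 22.1% in Old 1, 6.67% in Young 1, 3.48% in Running 1, plus 16.2% in Sedentary 1, lay between 10% and 90% slow, and none lay above. The requirement of 10 UMIs kept 93.9% of Myh7-dominant nuclei in Old 1 but 52.5% in Sedentary 1, which is shallower.

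**Figure D3:**
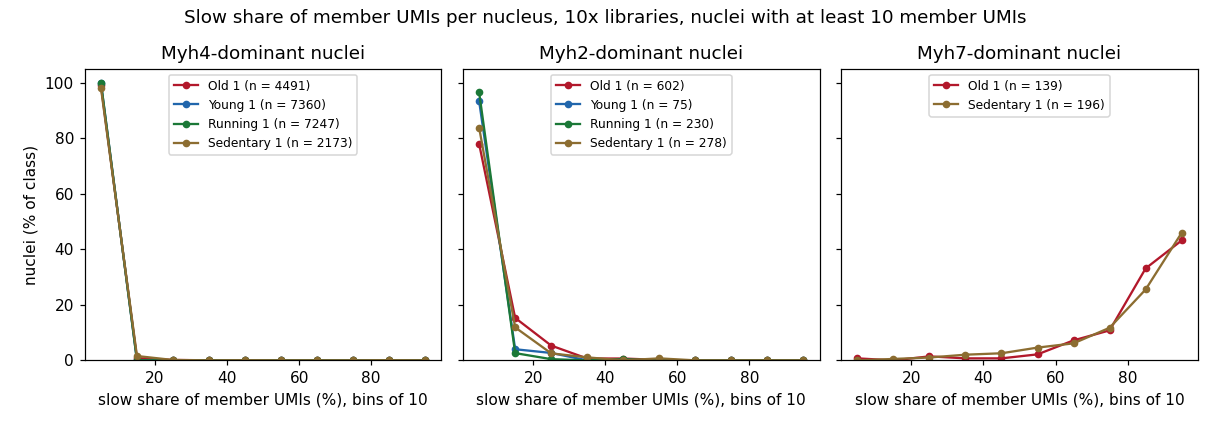
Percentage of Myh4-, Myh2- and Myh7-dominant nuclei (y axis) in each 10% bin of the slow share of member UMIs (x axis), 1 line per 10x library, for nuclei with at least 10 member UMIs. Myh4-dominant nuclei sit in the lowest bin (98.2% or more of each library), Myh7-dominant nuclei (139 and 196) peak in the top bin, and part of the Myh2-dominant nuclei reach the bins above 10%.

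In Myh2-dominant (type IIa) nuclei the slow light chains, but none of the slow troponin genes, were called against Myh4-dominant nuclei. Myl3 was 190.0, 55.5, 21.9 and 53.2 in the Myh2-dominant nuclei of Old 1, Young 1, Running 1 and Sedentary 1 and 920.1, 537, 104 and 119 in those of Old 2, Young 2, Running 2 and Sedentary 2, higher than in Myh4-dominant nuclei of all 8 libraries (0.346 to 285). Its log2 fold change was 2.45 (SE 0.36, adjusted p = 1.27e-06, edgeR). Myl2 was 90.3, 41.6, 32.9 and 30.5 in the 10x libraries and 312, 185, 104 and 98.9 in the second set, higher in 7 of 8 libraries and lower in Young 2 (206 in its Myh4-dominant nuclei). Its log2 fold change was 1.92 (SE 0.40, adjusted p = 3.33e-04, edgeR). The slow troponin genes had log2 fold changes of 0.11 (Tnnt1, SE 0.31), 0.06 (Tnni1, SE 0.39) and -0.10 (Tnnc1, SE 0.37), signs that turned in part of the alternative fits. The fast chains Myl1 (-0.71, SE 0.13, edgeR adjusted p = 3.43e-05) and Mylpf (-0.62, SE 0.12, edgeR adjusted p = 1.30e-04) and the fast T subunit Tnnt3 (-0.37, SE 0.12, edgeR adjusted p = 0.0170) were lower. Tnni2 (-0.05, SE 0.12) and Tnnc2 (0.02, SE 0.13) did not pass the test. The 5 members called here stand beside 21.4% of all genes, 9.65% higher and 11.7% lower. The call of Tnnt3 was lost without Running 1 (-0.31, edgeR adjusted p = 0.0934) and with DESeq2 size factors (-0.30, edgeR adjusted p = 0.0652). In the second set alone the calls of Tnnt3 (-0.18, edgeR adjusted p = 0.523) and Myl2 (0.59, edgeR adjusted p = 0.0754) were lost.

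Myh7-dominant nuclei also differed from Myh2-dominant ones in all 10 members, where 3.54% of all genes were called (1.93% higher and 1.61% lower). With DESeq2 size factors the 266 genes called higher and 223 lower became 387 and 189. The slow troponins were higher by 5.65 (Tnnt1, SE 0.36), 5.61 (Tnni1, SE 0.38) and 5.97 (Tnnc1, SE 0.40) on the log2 scale and the slow light chains by 3.39 (Myl2, SE 0.45) and 2.47 (Myl3, SE 0.40). The fast members differed by -1.94 (Tnnt3, SE 0.17), -1.74 (Tnni2, SE 0.18), -1.02 (Tnnc2, SE 0.18), -1.50 (Myl1, SE 0.18) and -1.02 (Mylpf, SE 0.18), with edgeR adjusted p of at most 2.82e-04 for all 10. In Myh1-dominant (type IIx) nuclei only the fast light chains were called against Myh4-dominant nuclei, Myl1 with -0.60 (SE 0.13, edgeR adjusted p = 7.97e-04) and Mylpf with -0.50 (SE 0.12, edgeR adjusted p = 0.00296). Myl1 was lower in 7 of 8 libraries and higher in Sedentary 2, and Mylpf was lower in 7 of 8 and higher in Young 1. Both calls were lost in the second set alone (Myl1 -0.29, edgeR adjusted p = 0.441, and Mylpf -0.41, edgeR adjusted p = 0.166). Of all genes, 12.6% were called in this comparison, 5.42% higher and 7.19% lower.

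**Figure D4:**
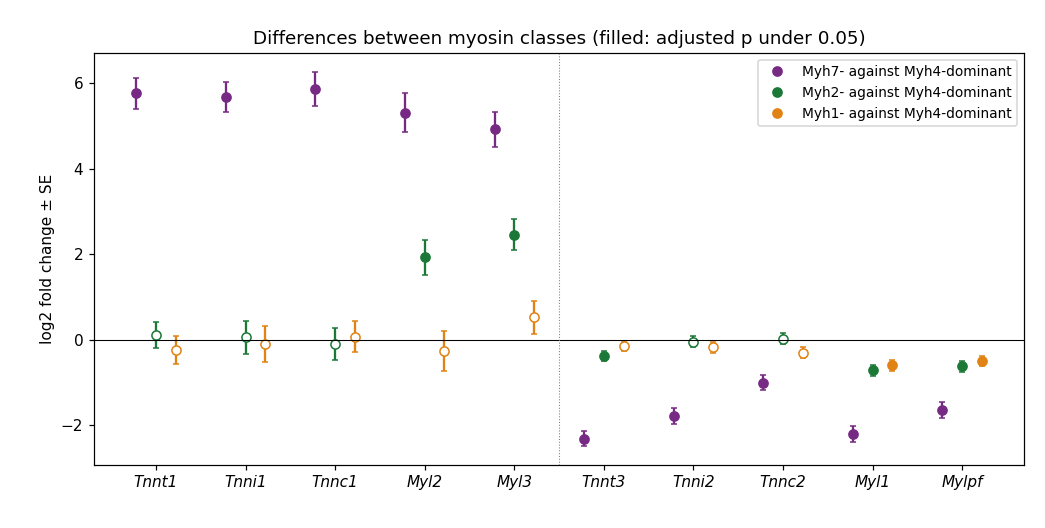
Log2 fold change (± SE, edgeR fit of 28 sums) of each member in Myh7-, Myh2- and Myh1-dominant against Myh4-dominant nuclei; filled points have an adjusted p under 0.05. All 10 members are called for Myh7, the light chains and Tnnt3 for Myh2, and Myl1 and Mylpf for Myh1.

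Other genes of the contractile apparatus were counted as lists. Of 9 slow partners tested, 8 were higher in Myh7- than in Myh4-dominant nuclei (median log2 fold change 4.10), among them Tpm3, slow tropomyosin, with 5.55 (SE 0.32), Atp2a2, the slow calcium pump, with 5.40 (SE 0.28), Casq2, a calcium store protein, with 4.10 (SE 0.38) and Myh7b, a slow myosin, with 6.04 (SE 0.48). Pln did not pass the test (0.46, SE 0.36). Of 10 fast partners, 9 were lower (median -2.30), such as Tpm1 (-2.59, SE 0.20), Atp2a1, the fast calcium pump (-1.49, SE 0.15), Mybpc2, fast myosin-binding protein C (-2.88, SE 0.27) and the calcium buffer Pvalb (-2.17, SE 0.26), and Acta1, skeletal actin, was higher (1.07, SE 0.19). In Myh2- against Myh4-dominant nuclei 5 slow partners were higher (Actn2 3.03, Casq2 2.71, Csrp3 3.97, Mybpc1 2.08 and Myoz2 4.01), whereas Tpm3 (-0.33, SE 0.27), Atp2a2 (0.13, SE 0.23) and Myh7b (-0.43, SE 0.56) did not pass the test. In the same comparison 9 of 10 fast partners were lower (median -1.20). In Myh1- against Myh4-dominant nuclei 5 slow partners were higher and 8 fast partners lower. Of 4 cardiac or embryonic paralogs tested, Myh6 (5.10, SE 0.54) and Actc1 (-2.07, SE 0.68) differed between Myh7- and Myh4-dominant nuclei. Myh6 and Myh7 are near copies and neighbours, so reads could be shared between them. The medians of all genes tested were -0.16 for Myh7, -0.11 for Myh2 and -0.09 for Myh1 against Myh4.

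The contrasts of the slow members in Myh7-dominant nuclei, and of Myl2 and Myl3 in Myh2-dominant nuclei, were smaller in the second set. For Myh7 this set Old 1 and Sedentary 1 against Old 2 and Young 2, so set and group cannot be fully told apart. Per library, the log2 difference of Tnnt1 was 7.53 in Old 1, 6.34 in Sedentary 1, 5.53 in Old 2 and 4.21 in Young 2. That of Myl3 was 5.86, 5.72, 5.35 and 3.41 in the same order. In the fit, the log2 fold change of Myh7- against Myh4-dominant nuclei was lower in the second set by 2.77 for Tnnt1, 2.81 for Tnni1, 2.85 for Tnnc1, 2.76 for Myl2 and 2.37 for Myl3 (SE between 0.37 and 0.43, edgeR adjusted p of at most 1.98e-04). The median over all genes in this interaction was -0.50. All 5 slow members and no fast member were called there, beside 3.20% of all genes (0.506% higher and 2.69% lower). For Myh2 against Myh4 it was lower by 3.05 for Myl2 (SE 0.42) and 2.50 for Myl3 (SE 0.40), 2 members beside 2.25% of all genes (0.272% higher and 1.98% lower). For Myh1 against Myh4 no member was called in the interaction, beside 0.863% of all genes (0.0908% higher and 0.772% lower). The slow share of member UMIs in Myh4-dominant nuclei was between 0.0263% and 0.984% in the 10x libraries and 5.71%, 5.69%, 1.95% and 1.30% in Old 2, Young 2, Running 2 and Sedentary 2. Its part in the smaller contrasts was not tested.

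The comparison of Old and Young asks what changes with age. No member was called in the sums over all nuclei, where 0% of 20321 genes were called by edgeR (557 had an unadjusted p under 0.05) and DESeq2 called none either. The slow members went opposite ways in the sets. In the 10x libraries Old 1 exceeded Young 1 by between 4.42 (Tnni1) and 5.79 (Myl3) on the log2 scale, and in the second set Old 2 was lower than Young 2 by between 0.42 (Myl3) and 1.26 (Tnnt1). The fitted log2 differences of the slow members were between 0.04 (Tnni1, SE 1.53) and 0.90 (Myl3, SE 1.72). The numbers of Myh7-dominant nuclei ran in the same order, with 148 against 0 in the 10x libraries and 30 against 82 in the second set. Without the Myh7-dominant nuclei the slow members summed still differed by 4.33 in the 10x libraries and -0.99 in the second set.

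The fast members were lower in Old in both sets, with the exception of Tnni2 in the 10x libraries. The log2 differences of Old 1 and Young 1 were -0.39 for Tnnt3, 0.13 for Tnni2, -0.13 for Tnnc2, -1.004 for Myl1 and -1.15 for Mylpf. Those of Old 2 and Young 2 were -1.09, -1.03, -1.14, -0.70 and -1.21. The fitted differences were -1.08 (SE 0.52) for Tnnt3, -0.75 (SE 0.57) for Tnni2, -0.91 (SE 0.63) for Tnnc2, -1.26 (SE 0.44) for Myl1 and -1.55 (SE 0.63) for Mylpf, against a median of 0.19 over all genes, and edgeR gave each an adjusted p of 0.693. Only Myl1 and Mylpf had an unadjusted p under 0.05 in that edgeR fit. Without Old 2 the fitted values were -0.56, -0.09, -0.21, -1.02 and -1.09. The direction held for all 5 fast members when each library was left out in turn.

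The comparison of Running and Sedentary asks what exercise changes. No member was called in the fit of all 8 libraries (0% of 20321 genes, 98 with an unadjusted p under 0.05, and none by DESeq2). The slow members again went opposite ways in the sets: Running 1 was lower than Sedentary 1 by between 3.56 (Tnni1) and 5.88 (Tnnc1) on the log2 scale, and Running 2 exceeded Sedentary 2 by between 0.49 (Myl3) and 1.43 (Tnni1). Myh7-dominant nuclei numbered 7 against 373 in the 10x libraries and 13 against 14 in the second set. The fitted differences of the slow members were between -3.43 (Tnnc1, SE 2.22) and -1.75 (Myl2, SE 1.76). All 5 fast members were higher in Running in both sets. Running 1 exceeded Sedentary 1 by 1.20 for Tnnt3, 1.82 for Tnni2, 2.17 for Tnnc2, 0.58 for Myl1 and 2.69 for Mylpf, and Running 2 exceeded Sedentary 2 by 0.50, 0.66, 0.64, 0.72 and 0.60. The fitted differences were 0.82 (SE 0.51), 1.17 (SE 0.57), 1.25 (SE 0.64), 0.67 (SE 0.44) and 1.41 (SE 0.65), against a median of -0.04 over all genes, and edgeR gave each an adjusted p of 0.99997.

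The calls for Running depended on which libraries were fitted. With the 4 Running and Sedentary libraries alone, 6 members were called, Tnnt1, Tnnc1 and Myl3 lower and Tnni2, Tnnc2 and Mylpf higher, beside 0.445% of all genes. Without Sedentary 2, which leaves Sedentary 1 alone in its group with a spread assumed to be that of the other groups, 6 members were called, the 5 slow ones lower and Mylpf higher, beside 1.99% of all genes. Without Sedentary 1 the slow members turned upward (0.54 for Myl3 to 1.48 for Tnni1) and the fast ones were between 0.35 (Tnnt3) and 0.55 (Tnni2). In nuclei with non-myofibre markers the fast members summed were also higher in Running 1 than in Sedentary 1, by 0.99 on the log2 scale, against 0.96 in Myh4-dominant nuclei, and Mylpf by 2.34 against 2.60. The 2 kinds of nuclei overlapped unequally, as 7.58% of Myh4-dominant nuclei in Running 1 and 0.652% in Sedentary 1 had such markers. The part of free RNA in the difference of Running 1 and Sedentary 1 was not tested.

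**Figure D5:**
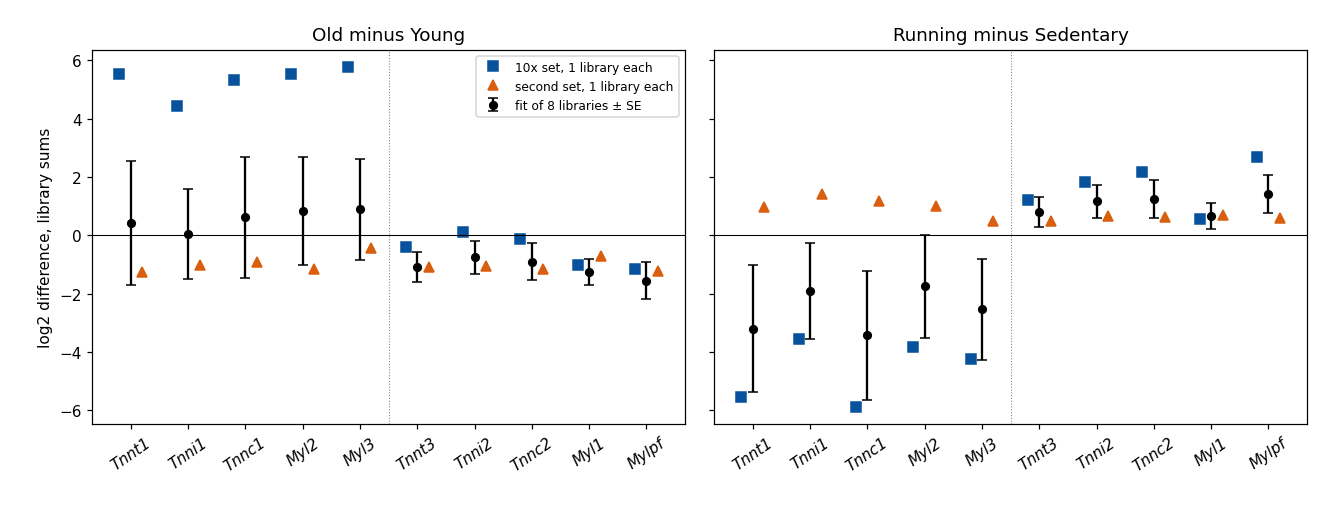
Log2 differences of library sums for each member, Old minus Young (left) and Running minus Sedentary (right): squares are the 10x libraries and triangles the second set, each 1 library minus 1 library, and black points are the edgeR fit of 8 libraries ± SE. The slow members lie on opposite sides of 0 in the 2 sets, whereas the fast members lie below 0 for Old except Tnni2 in the 10x libraries and above 0 for Running.

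Within myosin classes no member was called between Old and Young or between Running and Sedentary (0% of 18484 genes in Myh4-, 9597 in Myh1- and 8203 in Myh2-dominant nuclei, and no member by DESeq2). Between 104 and 681 genes had an unadjusted p under 0.05 in these edgeR fits. The summed fast members of Myh4-dominant nuclei differed by -0.55 in the 10x libraries and -1.03 in the second set between Old and Young, and by 0.96 and 0.60 between Running and Sedentary. Myh1-dominant nuclei gave -0.84 and -0.58 for Old and 0.62 and 0.49 for Running, and Myh2-dominant nuclei -0.51 and -0.26 for Old and 0.69 and 0.66 for Running. The summed slow members of Myh4-dominant nuclei differed by 4.42 and -1.03 for Old and by -4.05 and 1.19 for Running, in the same order as in whole libraries. In nuclei with non-myofibre markers of the 10x libraries they differed by 3.97 for Old and by -3.35 for Running, and the part of free RNA in the values of Myh4-dominant nuclei was not tested. In Myh7-dominant nuclei the conditions could not be compared, since no comparison had 20 such nuclei in all 4 of its libraries.

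The genes whose level ran most like the summed slow members over the 28 sums, centred per library, were Cox6a2, a subunit of cytochrome c oxidase in striated muscle (Pearson r 0.92), Atp2a2 (0.89), Fzd9 (0.88), 5730419F03Rik (0.88) and Aox1 (0.88). Those most like the summed fast members were Tpm1 (0.94), Gm26740 (0.93), Atp2a1 (0.90), Myom2, an M-band protein (0.88) and Rabep2 (0.87). These are descriptions over sums that share 8 libraries, out of 7694 genes compared.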

How the data were processed

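Nuclei of mouse gastrocnemius were counted in 8 libraries. Per the labels and the study's methods, the authors aligned reads to mm10 with Cell Ranger 6.1.2 (10x set) or PISA (DNBelab C set) and deposited filtered matrices of raw UMI counts per gene and nucleus. Whether intronic reads or strand were used is not given in the sources used here. Doublets were not removed.

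Genes were joined by symbol (21207 in all libraries), 98 mitochondrial and ribosomal genes were left out, and nuclei with over 200 and under 6000 genes and under 6% mitochondrial UMIs were retained, as in the study's methods. UMI counts were summed per library, or per library and myosin class (at least 20 nuclei), and tested with edgeR 4.0.16 (R 4.3.3; TMM, filterByExpr, quasi-likelihood test, Benjamini-Hochberg adjustment, threshold 0.05). Library sums had group and library set as terms, class sums the library as a block. DESeq2 1.42.0, other scalings, filters, class rules and left-out libraries were alternatives. Log2 differences within a library or set were taken from CPM, with a pseudocount of 1 for classes. Wilson intervals (95%) of shares cover counting error only. The named genes were the members, the fixed lists, and the 5 genes most like the summed slow and the summed fast members in profile. The members and lists were chosen with earlier results of these data known. Scripts were tested on simulated data with 200 genes changed, in equal parts at log2 folds of 2 and 4. The Old and Young library sums recovered 1% and 66% (20321 genes, 2 false calls). The Myh7 and Myh4 class sums recovered 100% at both (13815 genes, 13 false calls). The changed genes were drawn from the more abundant ones, and libraries differed only in depth, so recovery of scarce genes is not given.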

Additional observations from a re-analysis of the deposited data

Results flagged for a closer look

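In a single library a member stood apart from the other libraries of its kind. For Tnni1, the log2 difference of Myh1- and Myh4-dominant nuclei was -4.84 in Running 2, where the nearest of the 8 libraries had -0.75. The gap was 0.582 of the whole range. Running 2 had 27 Myh1-dominant nuclei and no Tnni1 UMI in them. In their sum 3 UMIs made 52.2 CPM, above the 27.7 CPM of Tnni1 in Myh4-dominant nuclei of Running 2. Few or no UMIs could thus be met at an equal level, and the value rests on the pseudocount. The Tnni1 comparison was 1 of 30 groups of libraries looked at in this way, and chance marks about 1 in 20.

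For 7 values the difference between myosin classes was itself different between the library sets, by the edgeR interaction test. Given as second set minus 10x set on the log2 scale, Myh7 against Myh4 differed by -2.77 for Tnnt1, -2.81 for Tnni1, -2.85 for Tnnc1, -2.76 for Myl2 and -2.37 for Myl3. Myh2 against Myh4 differed by -3.05 for Myl2 and -2.50 for Myl3. The medians over all genes were -0.50 for the Myh7 and -0.14 for the Myh2 comparison. In each of the 7 values the second set gave the smaller contrast, and no cause was tested.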

How the results depend on the processing

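The comparisons of conditions rest on 2 libraries a group, 1 in each set, with 3 residual degrees of freedom. All 10 members kept direction and call for Myh7 against Myh4 in every alternative run, and for Myh7 against Myh2 the only loss was Mylpf in the second set (-0.46). The labels give no replicate numbers that pair libraries, so the library set was the only pairing of libraries used. The library set was already a term of the fits of library sums, which thus compare libraries within sets. Within-class values under the stricter class rule were not run for Running against Sedentary in Myh1-dominant and for Myh2-dominant nuclei, for lack of nuclei. The causes of the changes below were not tested.

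In the second set alone, the count of members called was 0 for Myh1 against Myh4, beside 158 of all genes. For Myh2 against Myh4 it was 3 there, beside 652 of all genes. The calls lost were -0.29 for Myl1 and -0.41 for Mylpf (Myh1), and 0.59 for Myl2 and -0.18 for Tnnt3 (Myh2). For Running against Sedentary the count was 6 with the 4 libraries of the comparison alone, beside 0.445% of all genes. It also depended on which library was left out. Within classes, some fits that left out 1 library, and so had 1 library alone in a group, also called members. These were the fits without Old 1, Young 2 or Sedentary 2 in Myh1-, without Old 1 or Sedentary 2 in Myh2- and without Sedentary 2 in Myh4-dominant nuclei. Calls over all genes are not given for them, so they are no result about the members. With at least 5 UMIs and over 80% from 1 gene, the slow share differed by 88.7 points for Tnnt1 and Tnnt3, 85.9 for Tnni1 and Tnni2 and 91.2 for Myl2 and Mylpf. That rule left 4 Myh7-dominant nuclei in Old 2 and 4 in Young 2, so only Old 1 and Sedentary 1 remained. The main rule also held Old 2 and Young 2, so the change of rule and of libraries cannot be told apart.

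Without the library set term, Old against Young turned to -1.29 for Myl2, -0.75 for Myl3, -1.30 for Tnnc1, -1.35 for Tnni1 and -1.67 for Tnnt1, and Running against Sedentary to 0.38 for Myl2, 0.28 for Tnni1 and 0.13 for Tnnt1. Without Myh7-dominant nuclei, chosen after seeing the data, Old against Young was -0.43 for Tnni1. With each library left out, Old against Young ran from -1.21 to 4.88 for Myl2, -0.94 to 5.43 for Myl3, -1.48 to 5.01 for Tnnc1, -1.68 to 4.20 for Tnni1 and -1.72 to 5.13 for Tnnt1. Running against Sedentary ran from -3.55 to 0.84 for Myl2, -4.21 to 0.54 for Myl3, -5.58 to 1.002 for Tnnc1, -3.56 to 1.48 for Tnni1 and -5.32 to 0.83 for Tnnt1.

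For Myh2 against Myh4, members that had not passed the test turned sign. Tnnc1 was 0.11 with at least 1 UMI and a strict maximum, 0.20 with the stricter class rule and 0.58 in the 10x set alone. Tnnc2 was -0.0521 with DESeq2, -0.0086 with the looser class rule, -0.0614 with no filter, -0.0788 in myofibre-marker nuclei and -0.15 in the second set. In the second set Tnni1 was -0.31 and Tnnt1 -0.0671. Tnni2 was 0.0237 with DESeq2 size factors and 0.12 in the 10x set. With each library left out, Tnnc1 ran from -0.30 to 0.11, Tnnc2 from -0.14 to 0.0681 and Tnni1 from -0.22 to 0.23.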
